A study of Mus musculus with 6 samples.

Results

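Secreted modulators of Wnt signaling were followed in adipocytes with RBMS1 knockdown (3T3-L1 line). The set held 9 genes of the 45706 in the count table, namely Sfrp1, Sfrp2, Sfrp4, Sfrp5, Frzb, Wif1, Dkk2, Dkk3 and Rspo3. It was chosen by the measured level of Sfrp2, which was lower in the knockdown, so the difference in Sfrp2 is given as a description with no test. The samples were 3 scrambled control and 3 RBMS1 knockdown cultures of 3T3-L1, a mouse embryo fibroblast line that becomes adipocytes under a hormonal cocktail. All 6 carried a lentiviral shRNA and were selected with puromycin, the control cells (genotype WT in the labels) with a scrambled shRNA and the knockdown cells (RBMS1KD) with an Rbms1 shRNA. All were treated with insulin, dexamethasone, IBMX and rosiglitazone and were collected on day 7 of differentiation. The number of transductions behind the 3 cultures of a group is not given in the sources used here. The p-values therefore measure the spread between these samples.

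Wnt proteins are secreted ligands that bind Frizzled receptors and, in the canonical branch, the co-receptors LRP5 and LRP6, which stabilizes beta-catenin. Secreted frizzled-related proteins carry a cysteine-rich domain like that of Frizzled and bind Wnt ligands outside the cell, as does WIF1. Dickkopf proteins bind LRP5 and LRP6, with DKK3 as the divergent member of the family, while R-spondins raise the amount of Frizzled at the cell surface through LGR receptors and the ligases ZNRF3 and RNF43. Canonical Wnt signaling is known to restrain adipogenesis, and preadipocytes express several of these modulators.

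Sfrp2 was the only one of the 9 genes with enough counts to be tested, so its sequences are shown. Sfrp2 (ENSMUSG00000027996) lies on the plus strand of chromosome 3 of GRCm38 from 83766321 to 83774316, and its main transcript has 3 exons and 2003 bases. The RefSeq promoter of GRCm38.p6, chr3:83766071-83766370 on the plus strand, spans 250 bases before to 50 after the start of the gene and has a GC content of 66%. Capitals mark the only match among the letters searched on both strands, ATTTGCAT, the octamer motif, which begins at position -47 from the start of the gene.
Sfrp2 promoter: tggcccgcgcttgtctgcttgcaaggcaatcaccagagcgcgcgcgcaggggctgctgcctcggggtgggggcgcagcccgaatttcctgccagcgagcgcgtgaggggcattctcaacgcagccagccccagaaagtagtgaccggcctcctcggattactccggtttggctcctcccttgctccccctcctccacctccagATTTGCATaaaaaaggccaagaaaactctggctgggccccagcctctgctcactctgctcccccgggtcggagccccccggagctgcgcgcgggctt
The octamer letters were found in 1.74% of the 32851 promoters of the same length and were added to the search after the sequence had been seen. The letters TATAAA of the TATA box, CTTTGA of TCF/LEF factors and CCAAT of the CCAAT box were not in this window. They occurred in 13.6%, 16% and 37.4% of the promoters. RBMS1 is known as a binder of A/U-rich nucleic acid, and the letters ATATA were therefore searched in the Sfrp2 transcript of GENCODE M21. They occurred at 2 places, both in the 3' UTR, from base 1886 and from base 1974 of the transcript, and are in capitals in the windows shown.
Sfrp2 3' UTR, chr3:83774187-83774215: agcttacctgtaATATAcgtagtagttga
Sfrp2 3' UTR, chr3:83774275-83774303: tatattctttgtATATAaactttacatct
At least 2 matches were found in 31.9% of the 4660 protein-coding transcripts between 1800 and 2200 bases long, and at least 1 match in 57.1%. A match is a run of letters and was not tested for binding.

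Library totals ranged from 3142695 to 11073098 counts. Levels are given as CPM, counts per 1000000 after TMM scaling of the library, and values of a group always run from replicate 1 to replicate 3. Scrambled control replicate 2 had the lowest total and the lowest TMM factor, 0.642 against 0.974 to 1.23 in the others. That factor makes its CPM higher than its total alone would give. A number of 3 counts, the limit that a count of 0 allows, corresponds to 0.220 to 1.49 CPM in a single library. These limits and the intervals given below cover counting error only. Rbms1, the targeted gene, was at 113, 102 and 99.6 CPM in the scrambled controls and at 49.2, 61.4 and 84.0 CPM in the knockdown samples (log2 fold change -0.69, adjusted p = 0.185 with edgeR's quasi-likelihood test). Each knockdown sample was below each control. The authors report the knockdown at the protein level by immunoblot, which is not part of these counts. RBMS1 knockdown replicate 1 stood apart in single genes, with Acta2 (smooth muscle actin) at 5.89 CPM against 78.4 to 298 in the other samples and Ccnd1 (cyclin D1) at 7.48 CPM against 33.3 to 110. Sfrp2, the count of called pathway genes and the marker lists are given with and without it.

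Sfrp2 had the most counts of the 9 genes in scrambled control cells and was about an order of magnitude lower in RBMS1 knockdown cells. It had 103, 28 and 140 counts in the scrambled controls, or 16.5, 13.9 and 24.1 CPM. In the knockdown samples it had 3, 13 and 42 counts, or 0.431, 1.52 and 3.08 CPM. The groups did not overlap, and the lowest control was 4.51 times the highest knockdown sample. Mean levels were 18.2 ± 5.29 CPM (SD, n = 3) and 1.68 ± 1.33 CPM (SD, n = 3), a 10.8-fold difference. The fitted log2 fold change was -3.36 (standard error 0.53). The pooled counts, divided by the library sizes, gave a ratio of 0.103 of knockdown to control (95% exact binomial interval 0.0764 to 0.138). Since this contrast of Sfrp2 chose the gene set, these values carry no test. The gene also passed the low-count filter only through its control samples.

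The knockdown samples spread in Sfrp2, as separate cultures can, and counting error alone is given for each. The 95% exact Poisson interval was 0.0889 to 1.26 CPM in RBMS1 knockdown replicate 1, 0.809 to 2.60 CPM in replicate 2 and 2.22 to 4.17 CPM in replicate 3. The intervals of replicates 1 and 3 did not overlap. The knockdown sample with the highest Sfrp2, replicate 3, was also the one with the highest Rbms1, and the sample lowest in Sfrp2 was lowest in Rbms1. With 3 samples this order is a description. It was also the order of the library totals in that group (6173305, 7820490 and 11073098 counts). Among the scrambled controls, replicate 3 was highest in Sfrp2 (24.1 CPM) and lowest in Rbms1 (99.6 CPM). In the scrambled control, the interval of replicate 3 (20.3 to 28.4 CPM) lay above those of replicates 1 and 2, which reached 20.1 CPM at most. Leaving out 1 sample at a time moved the log2 fold change of Sfrp2 between -4.16, when RBMS1 knockdown replicate 3 was dropped, and -2.95, when replicate 1 of that group was. Fewer Sfrp2-expressing cells and less Sfrp2 RNA per cell cannot be told apart in these bulk samples.

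**Figure D1:**
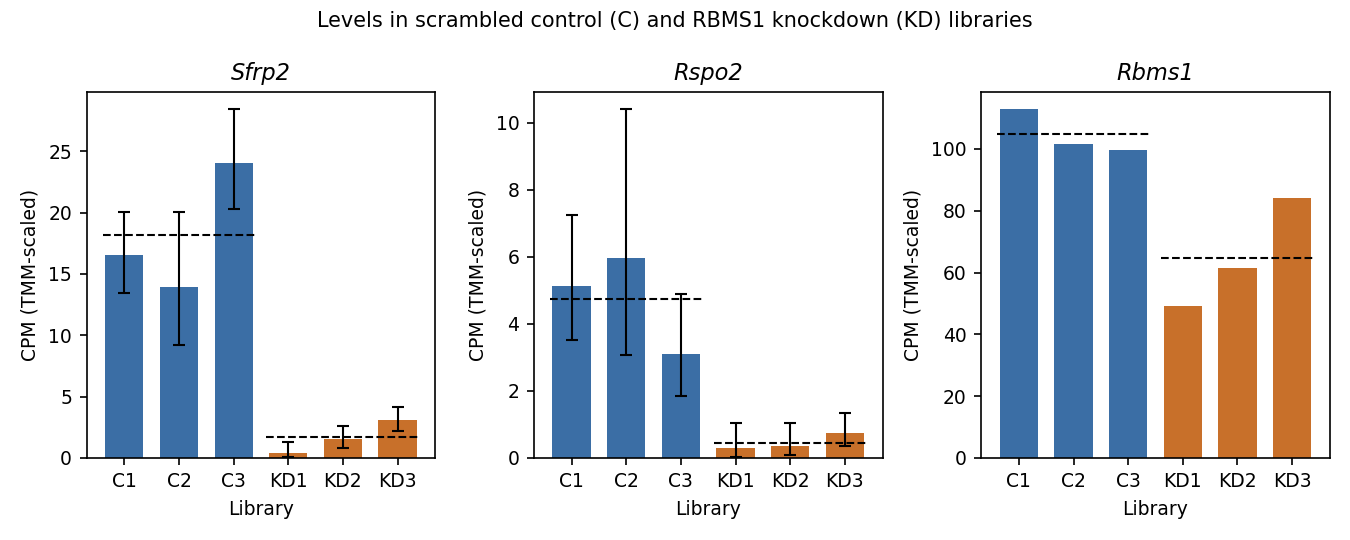
CPM (TMM-scaled, linear axes from 0) of Sfrp2, Rspo2 and Rbms1 in the 3 scrambled control (C, blue) and 3 RBMS1 knockdown (KD, orange) libraries, with 95% exact Poisson intervals for Sfrp2 and Rspo2 and dashed lines at the group means. All knockdown libraries lie below all controls for the 3 genes, and Sfrp2 goes from a mean of 18.2 to 1.68 CPM.

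Compared per length, as mean CPM per kb of exons, Sfrp2 stood at 8.44 in scrambled control cells and at 0.779 in knockdown cells. Set beside the 60 tested genes of a wider Wnt pathway list, it ranked 25 of 61 in the controls and 57 of 61 in the knockdown, where the median of the other genes was 5.96 and 6.63 CPM per kb. In the controls it thus lay above Wnt5a, the most abundant Wnt ligand (4.95 CPM per kb), and in the knockdown below it (2.93 CPM per kb).

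The tested genes next to Sfrp2 had smaller differences. Of 493 tested genes on chromosome 3 beyond 50 Mb, the part that holds Sfrp2, 61.9% had a log2 fold change below 0 (median -0.083), against 49.6% of all 11440 tested genes (median 0.0044). From the start of the chromosome to 50 Mb, away from Sfrp2, it was 90.1% of 91 genes (median -0.64), among them the adipocyte marker Fabp4. A window of 1 Mb on each side of Sfrp2 held or touched 7 other tested genes, with log2 fold changes from -0.96 for Mnd1 to 0.29 for Arfip1 and a median of -0.16. None of these 7 was called, that is passed an adjusted p of 0.1 (Benjamini-Hochberg) in the quasi-likelihood test of edgeR. Since 1.22% of all tested genes were called, a count of 0 among 7 says nothing of the neighbors. The nearest of them, Tlr2, a receptor of innate immunity, had a log2 fold change of 0.28. Once each sample's median per chromosome had been removed, the log2 fold change of Sfrp2 was -3.26. The antisense gene Gm26771, which overlaps the last exon of Sfrp2 on the other strand, had 0 counts in every library.

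**Figure D2:**
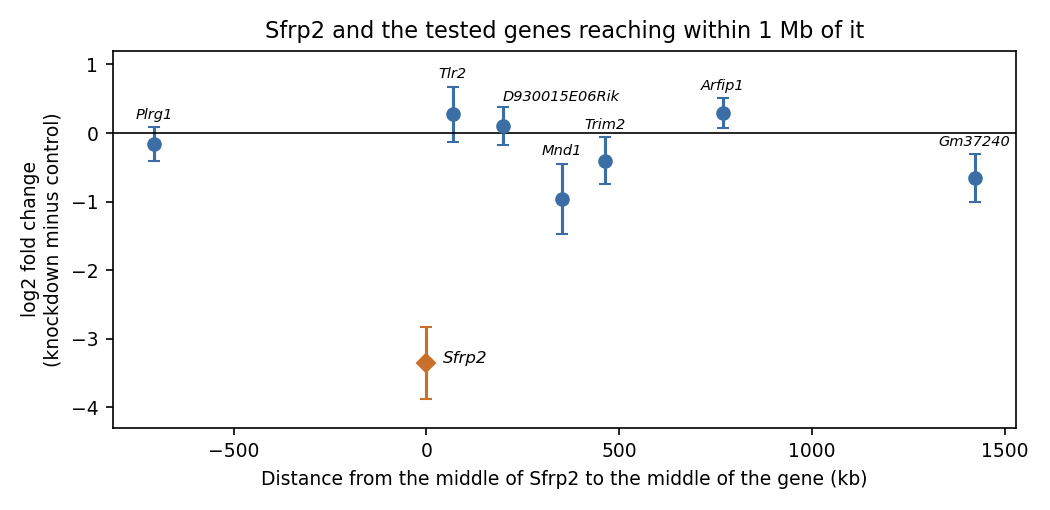
Log2 fold change (RBMS1 knockdown minus scrambled control, bars are standard errors) of Sfrp2 (orange) and of the 7 tested genes that reach into 1 Mb on either side (blue), against distance between gene middles in kb. Gm37240, a long gene that lies partly inside that window, has its middle beyond it. The neighbors lie between -0.96 and 0.29, and Sfrp2 lies at -3.36.

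The other 8 secreted modulators were at or near the limit of detection in both groups. None of them passed the filter on low counts, none had more than 13 counts in a library or more than 0.954 CPM, and in all 8 the groups overlapped. Their absence from the test therefore says nothing of a difference. Fitted with no filter, 7 of the 8 could be tested and 0 were called by edgeR, with the lowest adjusted p, 0.687, for Sfrp1. None of the 7 had an unadjusted p under 0.05 with edgeR or with DESeq2, which gave none of them an adjusted p. In that edgeR fit 1.38% of all genes were called.

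Among the frizzled-related genes, Sfrp5, which is known as an adipokine, had 2, 0 and 4 counts in the controls and 1, 1 and 13 in the knockdown samples. The 13 counts of knockdown replicate 3, the deepest library, correspond to 0.954 CPM. Pooled over each group, the ratio of knockdown to control was 1.21 (95% exact binomial interval 0.443 to 3.80). Sfrp4 had 3, 0 and 0 counts in the controls and 0, 0 and 9 in the knockdown samples, so that each group rested on 1 library (ratio 1.45, interval 0.361 to 8.32). Sfrp1, which forms a subfamily with Sfrp2 and Sfrp5, had 2 counts in scrambled control replicate 1 and 0 in the other samples. Frzb (sFRP3) had 1 count in RBMS1 knockdown replicate 3 and 0 elsewhere. No fold is given for these 2 genes, since both groups were under 3 counts.

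Among the other classes, Wif1 had 0 counts in each of the 6 libraries, which allows up to 0.213 CPM over the scrambled control group and 0.103 CPM over the knockdown group. Dkk2, an LRP-binding antagonist, had 0, 1 and 1 counts in the controls and 2, 3 and 3 in the knockdown samples, a ratio of 1.93 with an interval of 0.385 to 18.7. Dkk3 had 0, 0 and 1 counts against 0, 2 and 2 (ratio 1.93, interval 0.191 to 95.1). Rspo3, the agonist of the set, had 2, 0 and 2 counts against 1, 0 and 3 (ratio 0.483, interval 0.0899 to 2.59). All these intervals included 1, and at this depth a difference was not detectable.

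**Figure D3:**
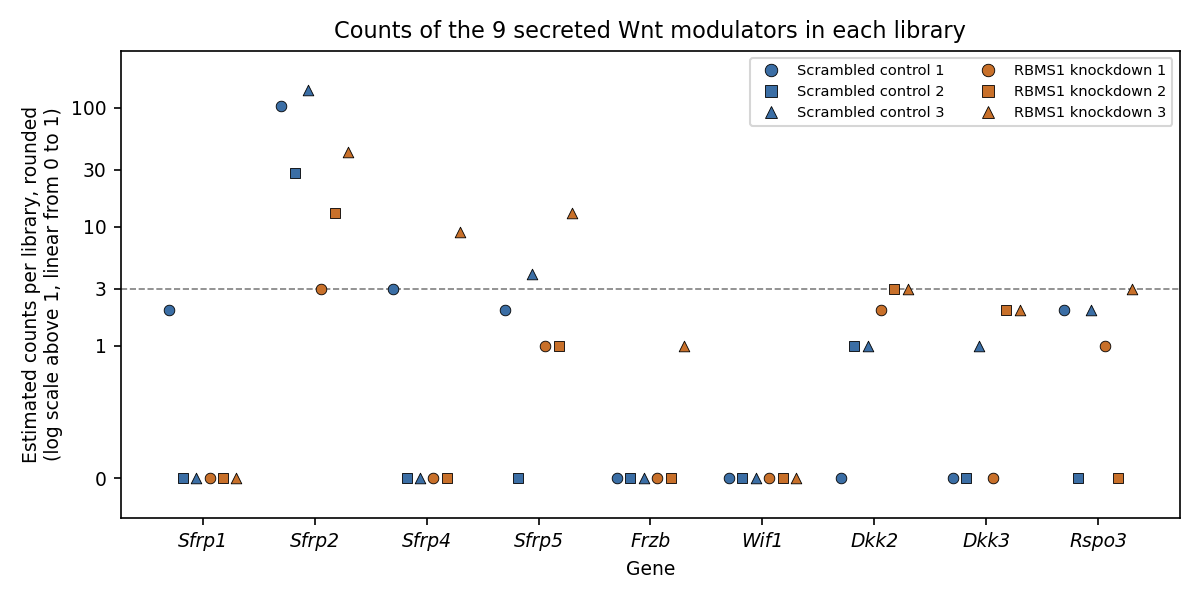
Rounded estimated counts of the 9 secreted Wnt modulators in each of 6 libraries (vertical axis logarithmic above 1 and linear from 0 to 1; the dashed line marks 3 counts). Only Sfrp2 lies above 13 counts, in all 3 scrambled control libraries and in RBMS1 knockdown replicate 3.

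The wider pathway was described with a list of 106 genes that holds none of the 9. Of these, 22 had no count in any library and 60 were tested, 31 with a log2 fold change below 0 and 29 above 0 (median -0.031, against 0.0044 over all tested genes). A single gene, Rspo2, was called by edgeR. Like Sfrp2, it passed the low-count filter only through its control samples, so the count is no support for a change of the pathway. Rspo2 was lower in the knockdown, a direction called for 0.909% of all tested genes. A total of 8 of the 60 genes had an unadjusted p under 0.05 in edgeR, a share near the 12.4% of all tested genes. DESeq2 called Rspo2 and Wnt5a, both lower, where it called 3.2% of all genes it adjusted. The samples of the groups did not overlap for 12 of the 60 genes, beside 18.5% of all tested genes. When RBMS1 knockdown replicate 1 was left out, edgeR called 4 of the listed genes, Rspo2 lower and Ptk7, Ccnd1 and Cd44 higher, among 61 tested. In that fit 5.94% of all tested genes were called.

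Rspo2 (ENSMUSG00000051920), an R-spondin and thus an agonist of canonical Wnt signaling, lies on chromosome 15 from 43020794 to 43170826. It had 32, 12 and 18 counts in the controls, or 5.13, 5.96 and 3.10 CPM. In the knockdown samples Rspo2 had 2, 3 and 10 counts, or 0.288, 0.351 and 0.734 CPM. No knockdown sample reached the lowest control, which was 4.22 times the highest knockdown sample. Groups without overlap and lower in the knockdown, by a gap of any size, were seen in 9.55% of all tested genes. The means were 4.73 ± 1.47 CPM (SD, n = 3) and 0.457 ± 0.242 CPM (SD, n = 3). The log2 fold change of Rspo2 was -3.18 (standard error 0.57, edgeR adjusted p = 0.0552, DESeq2 adjusted p = 0.000991). This p is of a gene kept by its high group alone. The fit with no filter is therefore set beside it, with a log2 fold change of -3.12 and an edgeR adjusted p of 0.0198 for Rspo2. The difference between Sfrp2 and Rspo2 in log2 fold change was not tested. Rspo2 was not called when scrambled control replicates 1, 2 and 3 were left out in turn (edgeR adjusted p = 0.213, 0.201 and 0.147). Its log2 fold change was -3.07, -3.01 and -3.44 there. These fits called 0.179%, 0.101% and 0.271% of all tested genes, against 1.22% with all 6 samples. The edgeR adjusted p of Rspo2 was 0.179 when RBMS1 knockdown replicate 2 was left out and 0.190 with the replicate number as a block. Those 2 fits called 0.326% and 0.341% of all tested genes. The log2 fold change of Rspo2 stayed between -3.75 and -2.79 under all 13 alternatives. Its relative Rspo1 had no count, and Rspo3 is described above.

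**Figure D4:**
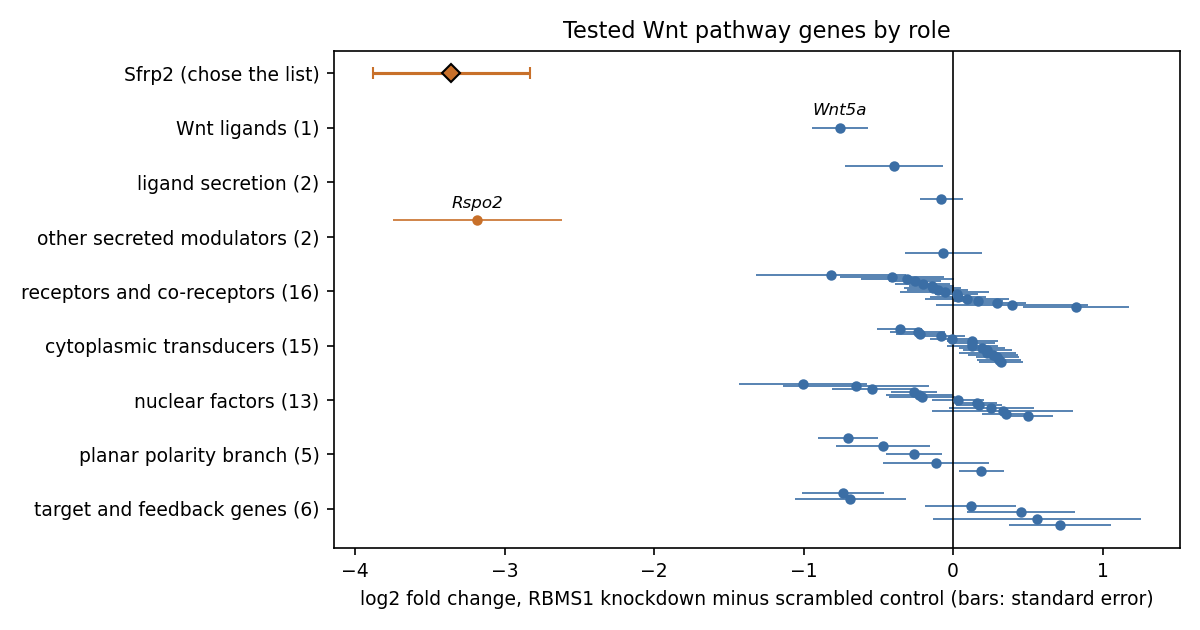
Log2 fold change (RBMS1 knockdown minus scrambled control, bars are standard errors) of the 60 tested genes of the wider Wnt pathway list by role, with the number of tested genes in parentheses and Sfrp2 on top. Rspo2 (orange) was called at an adjusted p of 0.1 or less, and the other 59 genes (blue) lie between -1.01 and 0.82.

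By role, 18 of 19 Wnt ligands were not tested, and 8 ligands had no count. Wnt5a, a ligand of mainly noncanonical signaling, was at 36.7, 37.2 and 42.2 CPM in the controls and at 21.7, 19.4 and 27.5 CPM in the knockdown samples, with no overlap. Its log2 fold change was -0.76 (standard error 0.19), with an adjusted p of 0.132 in edgeR and 0.0806 in DESeq2. Over the 13 alternatives the adjusted p of Wnt5a ranged from 0.0806 to 0.495. The 2 genes of ligand secretion were not called, and the more abundant per length, Wls, the carrier of Wnt proteins to the surface, had 9.81 CPM per kb in the controls and 9.30 in the knockdown. The log2 fold change of Wls was -0.08 and was above 0 in 3 of the 13 alternatives. Of 13 other secreted modulators only Rspo2 and Igfbp4 were tested. Igfbp4, whose product binds insulin-like growth factors and LRP6, was at 104 and 98.9 CPM per kb in controls and knockdown (log2 fold change -0.07, above 0 in 5 of the 13 alternatives). Dkk1 and Cthrc1 had no count.

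At 1.22% of all tested genes called by edgeR and 3.2% by DESeq2, a count of 0 is no result about lists of this size. None of 16 tested receptors and co-receptors was called, with log2 fold changes from -0.82 to 0.82. The most abundant per length was Lrp5, at 28.7 CPM per kb in the controls and 24.0 in the knockdown. The log2 fold change of Lrp5 was -0.25 and ranged from -0.40 to -0.12 with samples left out. With library sizes alone it was above 0 (0.11), but below the median of all genes in that fit (0.37). None of 15 cytoplasmic transducers (-0.36 to 0.32), 13 nuclear factors (-1.01 to 0.50) or 5 genes of the planar polarity branch (-0.70 to 0.19) was called by edgeR or DESeq2. Ctnnb1, which encodes beta-catenin, was at 219, 221 and 216 CPM in the controls and 186, 243 and 224 CPM in the knockdown samples. The log2 fold change of Ctnnb1 was -0.0061 (standard error 0.15) and took either sign across the alternatives. Bcl9l, a co-activator of beta-catenin, and Daam1, a formin of the planar polarity branch, had log2 fold changes of -0.26 and 0.19, with an adjusted p of 0.524 and 0.663 in edgeR. Bcl9l was above 0 with library sizes alone (0.13), and it too was below the median of all genes in that fit.

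Of 11 genes known as Wnt targets and feedback inhibitors, 3 had no count and 6 were tested. In these 6 the groups overlapped, 2 had a log2 fold change below 0 and 4 above 0 (median 0.29), and none was called by edgeR or DESeq2, which at the shares above says nothing of the list. Ccnd1 and Cd44 were called higher by edgeR without RBMS1 knockdown replicate 1, and Apcdd1, an inhibitor of the pathway at the membrane, was called lower without replicate 3 of that group. These fits called 5.94% and 0.997% of all tested genes. In knockdown replicate 3 Apcdd1 was at 49.92 CPM, within the 40.95 to 56.26 CPM of the controls. It was at 22.14 and 15.55 CPM in knockdown replicates 1 and 2. Axin2, the usual feedback target of canonical signaling, had 2 counts in scrambled control replicate 3 and 0 in the other libraries. Myc was at 71.7, 56.1 and 41.6 CPM in the controls and 25.3, 47.3 and 29.1 CPM in the knockdown samples, which overlapped, and its adjusted p was 0.307 in edgeR (log2 fold change -0.74, standard error 0.27).

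Markers checked the labelled cell type. All 10 adipocyte markers were tested, with Adipoq at 1056 to 2649 CPM, Fabp4 at 2127 to 4203 CPM and Pparg at 164 to 271 CPM over the 6 samples. The summed level of the 10 ranged from 22860 to 25760 CPM in the controls and from 12290 to 21620 CPM in the knockdown, without overlap. The sum was weighted by Lpl (lipoprotein lipase), and without it, a sum taken after the values were seen, the ranges overlapped through RBMS1 knockdown replicate 1 (10580 to 11990 CPM in the controls and 11410, 6938 and 9213 CPM in the knockdown samples). Of the 10 log2 fold changes, 9 were below 0 and none was called by edgeR, beside 1.22% of all tested genes. The groups did not overlap for 4 of the 10, beside 18.5% of all tested genes, with Lpl, Cebpa (an adipogenic transcription factor) and Pnpla2 (a triglyceride lipase) lower and Cd36 higher. Without RBMS1 knockdown replicate 1, they did not overlap for 7 lower and 1 higher, beside 34.2% of all tested genes. DESeq2, which called 3.2% of all genes, called Lpl lower and Cd36, a fatty acid transporter, higher, the latter at 613 to 788 CPM in the controls and 900 to 1299 CPM in the knockdown. Of 10 preadipocyte and fibroblast markers, 7 were below 0, and their summed level was 12450 to 14820 CPM in the controls and 8261, 16900 and 17070 CPM in the knockdown samples. Replicate 1 was thus below all controls and the other 2 were above them. Pdgfra, a receptor on preadipocytes, was at 204, 244 and 258 CPM in the controls and 83.2, 143 and 159 CPM in the knockdown samples, and Dlk1, a preadipocyte protein, at 361, 217 and 227 CPM against 67.7, 192 and 189 CPM. These were the 2 of 10 markers whose groups did not overlap, both lower in the knockdown, beside 9.55% of all tested genes. Without RBMS1 knockdown replicate 1 these 2 stayed lower, and 5 others were higher in both remaining knockdown samples than in any control. Of the others, Col1a1 ranged from 875 to 3292 CPM over the 6 samples, and Fn1, Col1a2 and Pdgfrb had log2 fold changes above 0 (0.52, 0.40 and 0.12). None of the 10 was called by edgeR and 1 was called by DESeq2, Pdgfra, which at the shares given above says little of the list. The 6 smooth muscle markers, of which Acta2 was lowest in RBMS1 knockdown replicate 1 and Myh11 was at 4.68 to 13.4 CPM, summed to 121 to 233 CPM in the controls. The sums were 46.1 CPM in knockdown replicate 1, below all controls, and 257 and 352 CPM in replicates 2 and 3, above them. The part of adipocyte or preadipocyte content in the levels of Sfrp2 and Rspo2 was not tested.

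The genes whose pattern over the 6 samples was most like that of Sfrp2 were ranked by Pearson's r of log2 CPM, which is a description over 6 libraries that share their depth and scaling. The highest was Pcdhb13 (r = 0.996), a protocadherin gene, with mean levels of 2.65 ± 0.149 and 1.19 ± 0.340 CPM (SD, n = 3 each) in controls and knockdown. Abi3bp, a matrix protein gene, had r = 0.988 and went from 34.6 ± 2.66 CPM (SD, n = 3) to 19.7 ± 5.25 CPM (SD, n = 3). Tmem192, a lysosomal membrane protein gene on chromosome 8, had r = 0.986, and Fam65a, also on chromosome 8, had r = 0.985. None of these 4 genes was called by edgeR, and no Wnt pathway gene was among the 5 most alike. Since 1.22% of all tested genes were called and 60 of the 11440 were on the pathway list, neither count says anything of the pattern.

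**Figure D5:**
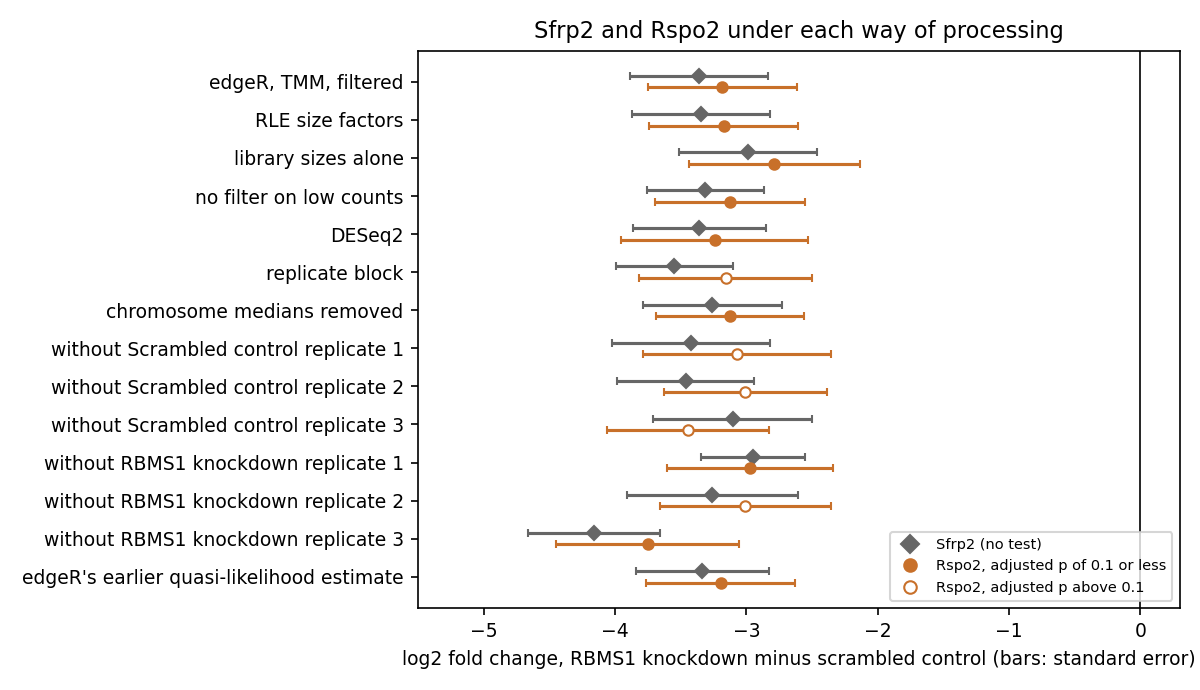
Log2 fold change (RBMS1 knockdown minus scrambled control, bars are standard errors) of Sfrp2 (grey diamonds, no test) and Rspo2 (orange circles, filled at an adjusted p of 0.1 or less) under each way of processing and with each sample left out. Sfrp2 lies between -4.16 and -2.95, and Rspo2 was called in 8 of the 13 alternatives.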

How the data were processed

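RNA of 3 scrambled control and 3 RBMS1 knockdown samples of 3T3-L1 was sequenced from stranded libraries depleted of ribosomal RNA. According to the submitters' processing notes, reads were trimmed with Trim Galore 0.6.7, aligned to GRCm38 with STAR 2.7.10a and quantified with Salmon 1.9.0. The authors deposited estimated counts per gene without normalization. The annotation release, and whether counting used strand, are not given in the sources used here.

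Rounded to whole numbers, these counts went into the quasi-likelihood test of edgeR 4.0.16 under R 4.3.3, with filterByExpr, TMM factors, the current rather than the legacy estimate and condition as the only term. P-values were adjusted by Benjamini-Hochberg over 11440 genes, and a gene was called where the adjusted p was at most 0.1. DESeq2 1.42.0 was an alternative. Of the tested genes, 11402 had a position and exon length in GENCODE M21 (GRCm38). Exact permutation tests were not run, because 0.1 is the smallest two-sided p for 3 against 3 samples. Log2 CPM used a prior count of 2. The scripts were checked on simulated counts.

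The members and lists were chosen with earlier results of these data known. Named genes are the 9 members, Rbms1, called pathway genes, the most abundant gene per length of each pathway role, the 5 genes most like Sfrp2 in pattern (1 of them is not reported here) and 8 markers. Lpl, Cebpa, Pnpla2, Cd36, Fn1, Col1a2, Pdgfrb, Gm37240, Mnd1, Arfip1, Tlr2, Gm26771, Ptk7, Ccnd1, Cd44, Apcdd1, Axin2, Dkk1, Cthrc1, Rspo1 and Wnt4 were named after their values were seen. Replicate numbers did not pair the samples. The alternatives were RLE factors, library sizes alone, no filter, DESeq2, a replicate block, centring of every sample on its median within each chromosome (chromosome 3 parted at 50 Mb, chromosomes under 50 tested genes left as they were) and each sample left out. The earlier quasi-likelihood estimate of edgeR was added after seeing the data.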

Additional observations from a re-analysis of the deposited data

How the results depend on the processing

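The log2 fold change of Sfrp2 stayed within 1 SD of its replicates (0.847 on the log2 scale) under all 13 alternatives, between -4.16 and -2.95, with no test. None of the other 8 members was called under any of them, which says nothing of stability where the filter removed them. The pathway count of 1 became 2 with DESeq2, 0 with the replicate block and 0 to 4 with each sample left out: Apcdd1 joined Rspo2 without RBMS1 knockdown replicate 3. The share of all tested genes called was 3.2% with DESeq2, 0.341% with the replicate block and 0.101% to 5.94% with each sample left out. It was 0.997% without RBMS1 knockdown replicate 3. The count over all genes, 140, was 268 without the filter on low counts, 430 with DESeq2, 39 with the replicate block, 71 with chromosome medians removed and 12 to 696 with each sample left out. Samples of the same number did not deviate together (correlations of -0.144, 0.0785 and -0.0284 for numbers 1, 2 and 3), so the block is not taken as pairing. Library sizes alone moved the median of all genes to 0.37, and there Bcl9l, Ctnnb1, Igfbp4, Lrp5 and Wls were above 0 (0.13, 0.37, 0.29, 0.11 and 0.29). Relative to that shift Ctnnb1 was level with the median and the other 4 were below it. Ctnnb1 also took the other sign with RLE factors (0.0018), without the filter (0.016) and with DESeq2 (0.0097), and ranged from -0.078 to 0.10 with samples left out. Igfbp4 and Wls did so with chromosome medians removed (0.015 and 0.011), and ranged from -0.42 to 0.15 and from -0.13 to 0.0091 with samples left out. The cause was not tested. Depth limits the 8 low members, for which 3 counts in a single library are 0.220 to 1.49 CPM.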

Other observations

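Of the Wnt ligands without a test, Wnt4 had the most counts, 57 over the 6 libraries. Of these, 40 were in RBMS1 knockdown replicate 3 (2.94 CPM), the deepest library, and the other libraries had 1 to 6. The 6 counts of scrambled control replicate 2, the shallowest library, correspond to 2.98 CPM. Mean levels were 1.32 CPM in the controls and 1.18 CPM in the knockdown. Sfrp4 and Sfrp5 had most of their knockdown counts, 9 of 9 and 13 of 15, in RBMS1 knockdown replicate 3.

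The genes called higher only when RBMS1 knockdown replicate 1 was left out were each lower in that library than in the other 2 knockdown samples. This largely follows from how they were picked and is a description. Ptk7, a co-receptor of the planar polarity branch, was at 24.3, 40.7 and 69.0 CPM in RBMS1 knockdown replicates 1, 2 and 3 and at 17.4 to 30.8 CPM in the controls. Cd44, a cell adhesion receptor, was at 25.7, 50.5 and 79.5 CPM in the same 3 libraries and at 27.9 to 37.2 CPM in the controls.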
